A study of Mus musculus with 27 samples.

Results

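The subject is the change between postnatal day 7 (P7) and postnatal day 30 (P30) in sorted cells of the nucleus accumbens (NAc), the ventral part of the striatum. It was read from 6 libraries, 3 at P7 and 3 at P30, chosen by their labelled region and age from the 27 of the series. The series set out to describe the proteome and transcriptome of DAT+ dopaminergic neurons, that is, cells carrying the dopamine transporter, over development. Beside the NAc it sampled 2 midbrain regions of C57/BL6 mice, the ventral tegmental area (VTA) and the pars compacta of the substantia nigra (SNc), and a further age, P60, so that 3 libraries stand for each combination of region and age. No transgene, Cre line or treatment is named in the labels, and both NAc groups share strain and labelled cell type, so that age is the labelled difference between them. RNA was amplified by SMART-seq2, a full-length protocol for very small samples, and sequenced as 150 bp read pairs on a NovaSeq. By the labels 5 mice served each age, but not which mice gave which library, so libraries of an age may share mice and p-values measure the spread between libraries, which may be technical.

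The P7 libraries held 12748196 to 16455078 reads in genes and the P30 libraries 6660850 to 10169545. Genes with a read numbered 19725 to 19904 at P7 and 16779 to 17928 at P30. Libraries of P7 resembled each other more closely (rank correlation across genes 0.914 to 0.920) than those of P30 did (0.729 to 0.753), and pairs of a P7 and a P30 library gave 0.606 to 0.643. Library titles carry a separate date-like prefix and code for each age, whose meaning the labels do not give. The effect of age cannot be told apart from that of a batch they may mark. The values given for single genes are levels in FPKM, which count fragments relative to gene length and library size, rescaled to the reads in genes of each library. Log2 fold changes are differences of mean log2(value + 1), P30 minus P7, with their standard error (SE), which understates the change of genes with low values. Adjusted p-values are from limma with Benjamini and Hochberg adjustment over 18888 genes, at a threshold of 0.05.

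Midbrain dopaminergic neurons keep their cell bodies in the SNc and VTA and send axons to the striatum. The NAc itself consists mostly of GABAergic projection neurons, which carry the receptors on which that dopamine acts, together with astrocytes, oligodendrocyte lineage cells, vessels and microglia, the macrophages of brain tissue. In rodents the weeks between these ages are known as a time when microglia stop dividing and take on their adult gene programme. Astrocytes, myelin and the blood-brain barrier also mature over this time.

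Several defining genes of midbrain dopaminergic neurons were absent or close to absent. Pitx3, En1, En2, Foxa1, Foxa2 and Lmx1a, transcription factors of that lineage, had 0 reads in all 6 libraries. A floor of 3 reads stands for a level of 0.0515 to 0.295 over these 6 genes and libraries. The transporter gene Slc6a3, which encodes the DAT of the labelled cell type, had 16 reads in P7 replicate 1 and 56 in P30 replicate 2, and 0 in the other libraries. Th, which encodes the rate-limiting enzyme of dopamine synthesis, had 65 reads in P7 replicate 3 and 0 elsewhere. Slc18a2, Ddc and Nr4a2, by contrast, had reads in every library. Slc18a2 had 161, 326 and 177 reads at P7 and 67, 23 and 24 at P30. Ddc had 42, 70 and 79 at P7 and 178, 50 and 11 at P30. Nr4a2 had 26, 183 and 142 at P7 and 171, 66 and 14 at P30. Microglial genes, given here as levels in rescaled FPKM and not as reads, were high. The complement gene C1qb had levels of 3929, 3945 and 3697 at P7 and 4555, 3331 and 4383 at P30. The median of 18 genes shared by microglia and macrophages lay at the 99.7 percentile of all genes tested in each P7 library and between the 99.5 and 99.6 percentile at P30. The labelled cell type was thus not borne out by the lineage factors with 0 reads, Slc6a3 or Th. The material is called sorted cells here.

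**Figure D1:**
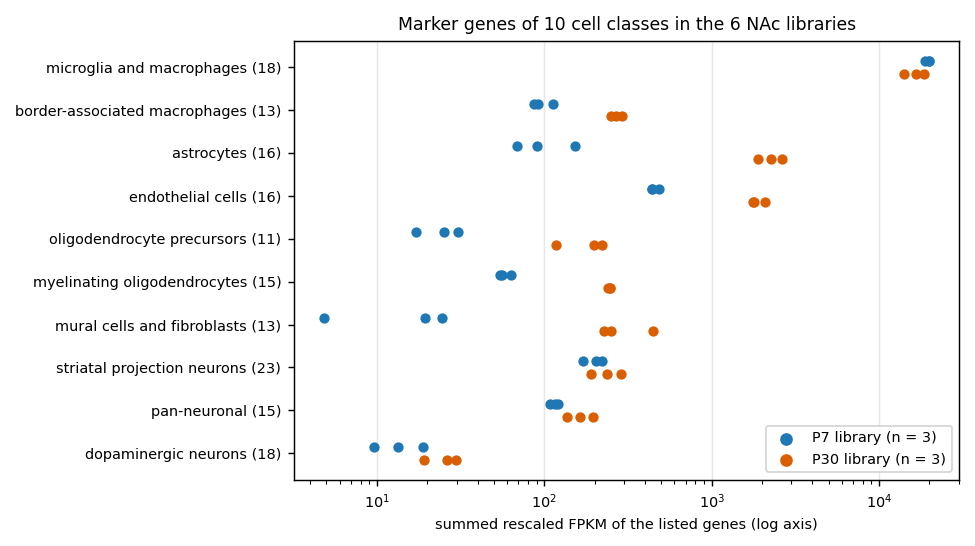
Summed levels (rescaled FPKM, log axis) of the marker genes of 10 cell classes, with the number of genes in brackets and 1 point per library, P7 in blue and P30 in orange. The 18 genes of microglia and macrophages sum to between 14136 and 19944 in every library, while astrocyte genes move from between 68.5 and 153 at P7 to between 1898 and 2641 at P30.

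Between P7 and P30, 1811 genes (9.59% of those tested) passed the threshold, of which 1097 (5.81%) were higher and 714 (3.78%) lower at P30. The median log2 fold change over all genes was 0.17, and 4592 genes had an unadjusted p under 0.05. Of the 1811 genes, 1771 had no overlap between the libraries of both ages. Libraries of both ages did not overlap in many other genes too: all P30 libraries lay above all P7 libraries in 25.6% of genes and below them in 20.7%. Quantile normalization, which moved the median of all genes to 0.01, called 1046 genes higher and 1333 lower, so the split between directions depends on the scaling.

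The genes ranked here had a mean level of at least 5, no overlap between ages and a symbol that is not that of a predicted gene, clone, pseudogene or small RNA; a pseudogene left out by this limit had the lowest log2 fold change of all, -6.62. The genes with the largest increase were mostly those known from astrocytes. Agt, which encodes angiotensinogen and is made by astrocytes in the brain, had 1.02, 1.61 and 0 at P7 and 263, 257 and 215 at P30 (log2 fold change 7.14, SE 1.05, adjusted p = 0.000131). Gjb6, the gap junction protein connexin 30 of astrocytes, had 0.592, 0.182 and 0 at P7 and 117, 98.8 and 122 at P30 (log2 fold change 6.52, SE 0.68, adjusted p = 1.95e-06). In both genes every P30 library lay far above every P7 library. Gpr37l1, an astrocytic orphan receptor, read 8.04, 17.8 and 5.88 at P7 and 875, 825 and 962 at P30 (log2 fold change 6.39, SE 0.58, adjusted p = 3.8e-07). Aldoc, the brain aldolase, rose 50.3-fold, with 28.8 ± 7.06 at P7 and 1449.9 ± 340.5 at P30 (mean ± SD, n = 3), with an adjusted p of 0.00581. Increases of the same order were found in the astrocytic genes Fgfr3 (5.79 ± 0.65), Slc7a10 (5.54 ± 1.00) and Ntsr2 (5.52 ± 0.84), given as log2 fold change ± SE. Also among the leading 12 were Cmtm5 (5.57 ± 0.88), Thrsp (5.995 ± 0.62), a regulator of fat synthesis, Car4 (5.88 ± 1.12), a carbonic anhydrase of brain capillaries, and Tmem212 (5.67 ± 1.47), a gene of ciliated ependymal cells. Tmem212 is lost without P7 replicate 1 or without P7 replicate 3 and with a pseudocount of 0.1 (limma adjusted p 8.5e-05 to 0.064 over its alternatives).

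The 12 largest decreases within this limit included genes of cell division, early response and chemokine signalling. Ccnb1, which encodes cyclin B1 of the G2 to M transition, had 60.3, 45.8 and 59.9 at P7 and 0, 0.136 and 0 at P30 (log2 fold change -5.74, SE 0.44, adjusted p = 2.2e-08). Egr1, an early response transcription factor, had 844, 790.3 and 843 at P7 and 18.2, 35.8 and 10.04 at P30 (log2 fold change -5.38, SE 0.69, adjusted p = 2.85e-05). Its relative Egr2 read 95.5, 88.3 and 84.95 at P7 and 8.31, 0.0421 and 1.37 at P30, a log2 fold change of -4.99 ± 1.22; it is lost without P30 replicate 2 (adjusted p 0.0020 to 0.062 over its alternatives). Egr1 and Egr2 were both high in each P7 library, and P30 replicates 2 and 1 were the highest of their age in turn. Pmaip1, the pro-apoptotic BH3 protein Noxa, read 213, 187 and 201 at P7 and 11.1, 3.46 and 3.46 at P30 (log2 fold change -5.01, SE 0.76, adjusted p = 0.000186). Marcksl1, a membrane protein of growing processes and of activated macrophages, read 973, 873 and 888 at P7 and 14.9, 118 and 15.7 at P30 (log2 fold change -4.85, SE 0.83, adjusted p = 0.00061), with P30 replicate 2 standing above the other P30 libraries. Dmrtb1 had 43.5 to 51.6 at P7 and 0 reads in all P30 libraries. Scand1, which overlaps Cnbd2, fell as well (-5.04 ± 0.90), as did Tmed2 (-4.51 ± 0.85), a cargo receptor of the early secretory pathway. Tmed2 does not pass on the deposited scale (adjusted p 1.7e-05 to 0.054 over its alternatives), which keeps VTA P30 replicate 3 in another unit. Aurka, Aurkb, Pbk and Ccl3 complete the 12 and are described with their groups.

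**Figure D2:**
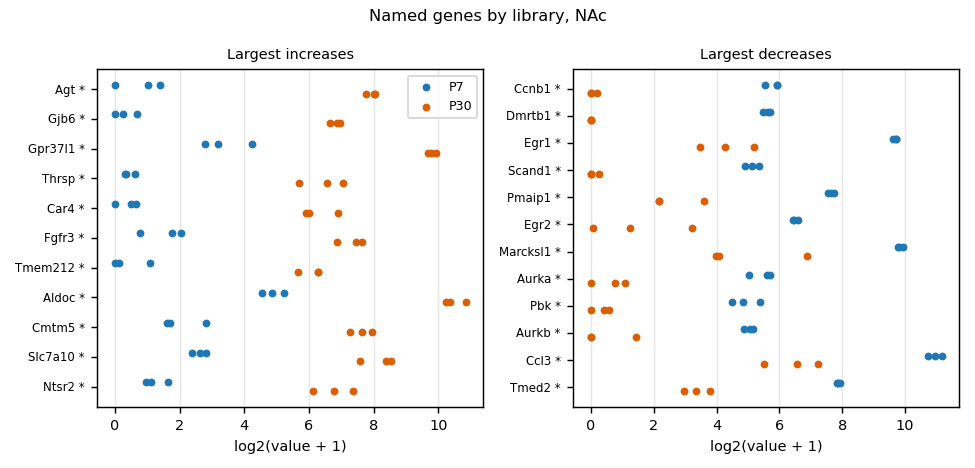
Levels of the named genes with the largest changes, as log2(value + 1), 1 point per library, P7 in blue and P30 in orange; an asterisk marks an adjusted p under 0.05. The genes were chosen to have no overlap between the libraries of both ages. Ccnb1, Dmrtb1 and Scand1 lie at or close to 0 at P30.

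Genes of mitosis fell together. All 26 of 26 listed genes of G2 and M phase were lower at P30 (median log2 fold change -2.86, against 0.17 over all genes tested), and none was higher. Their summed level was 477 to 617 at P7 and 7.18 to 50.4 at P30. Aurka and Aurkb, the mitotic kinases, read 47.5, 32.1 and 51.3 at P7 and 0.699, 0 and 1.13 at P30 and 32.4, 28.6 and 34.7 at P7 and 0, 1.698 and 0 at P30 in that order (log2 fold changes -4.83 ± 0.77 and -4.56 ± 0.62). Birc5, the chromosomal passenger survivin, read 20.2, 23.3 and 30.2 at P7 and 0, 0.294 and 0.927 at P30 (log2 fold change -4.22, SE 0.55, adjusted p = 3.02e-05). Mki67, the proliferation antigen Ki-67, read 6.95, 5.201 and 8.64 at P7 and 0.254, 0.824 and 0.328 at P30 (log2 fold change -2.43, SE 0.41, adjusted p = 0.000452). The highest P30 value of the list was that of Ccnb2, cyclin B2, in replicate 2. Ccnb2 read 85.1, 80.9 and 91.4 at P7 and 3.53, 16.1 and 0 at P30. The P30 libraries differed among themselves, with summed levels of the list of 27.9, 50.4 and 7.18. The count stayed between 22 and 26 under other filters, scalings and left-out libraries, and was 17 with a pseudocount of 0.1, the lowest of all alternatives.

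Genes of DNA replication moved the same way, with fewer past the threshold. Of 22 S phase genes 11 were lower and none higher (median -2.12, all 22 estimates below 0). Rrm2, the ribonucleotide reductase subunit, read 17.6, 23.1 and 21.8 at P7 and 0, 0 and 1.46 at P30 (log2 fold change -4.01, SE 0.64, adjusted p = 0.000299), and Mcm2, of the replicative helicase, 12.7, 15.7 and 15.6 at P7 and 0.961, 0.226 and 2.07 at P30 (log2 fold change -3.002, SE 0.47, adjusted p = 0.000217). Mcm6 (-3.43 ± 0.64), Mcm5 (-3.82 ± 0.86) and Cdc6 (-1.85 ± 0.39), which loads that helicase, fell too. The replication clamp gene Pcna kept the highest level of the list, with 100.3, 113 and 112 at P7 and 37.2, 29.7 and 17.9 at P30, and did not pass (adjusted p = 0.145). Pbk, a mitotic kinase outside both lists, read 21.5, 27.9 and 40.4 at P7 and 0.329, 0 and 0.503 at P30 (log2 fold change -4.57, SE 0.88, adjusted p = 0.00172). Counts of S phase genes ranged from 3 with a pseudocount of 0.1 to 19 with the 6 libraries fitted alone.

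Promoters of mitotic genes are known for CCAAT boxes, bound by the factor NF-Y, and for the element TTTGAA, through which the DREAM and MuvB complexes act. Windows of 200 bases before to 30 bases from the annotated start are shown for 4 G2 and M phase genes, since these genes fell together. The 4 had the largest decrease among those with a promoter in the RefSeq table (GRCm38.p6), with a single chromosome left out of the choice. Each is given 5′ to 3′ on the strand of its gene, with CCAAT and TTTGAA in capitals, and with their reverse complements ATTGG and TTCAAA. Ccnb1 is at chr13:100786457-100786686 on the minus strand, Aurka at chr2:172370541-172370770 on the minus strand, Cdca3 at chr6:124829976-124830205 on the plus strand and Ccnb2 at chr9:70421525-70421754 on the minus strand.
Ccnb1: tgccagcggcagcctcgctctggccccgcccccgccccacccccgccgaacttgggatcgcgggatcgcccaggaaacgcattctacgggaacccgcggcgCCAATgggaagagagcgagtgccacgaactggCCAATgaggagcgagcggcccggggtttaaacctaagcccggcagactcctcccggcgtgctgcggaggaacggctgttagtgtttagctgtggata
Aurka: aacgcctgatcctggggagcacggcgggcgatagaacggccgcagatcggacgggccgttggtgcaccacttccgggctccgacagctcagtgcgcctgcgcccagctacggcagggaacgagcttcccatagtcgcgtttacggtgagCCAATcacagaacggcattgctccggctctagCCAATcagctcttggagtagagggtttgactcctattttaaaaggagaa
Cdca3: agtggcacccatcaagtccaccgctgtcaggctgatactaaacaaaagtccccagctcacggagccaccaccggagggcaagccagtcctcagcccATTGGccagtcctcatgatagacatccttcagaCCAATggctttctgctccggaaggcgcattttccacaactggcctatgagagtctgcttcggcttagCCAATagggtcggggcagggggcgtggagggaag
Ccnb2: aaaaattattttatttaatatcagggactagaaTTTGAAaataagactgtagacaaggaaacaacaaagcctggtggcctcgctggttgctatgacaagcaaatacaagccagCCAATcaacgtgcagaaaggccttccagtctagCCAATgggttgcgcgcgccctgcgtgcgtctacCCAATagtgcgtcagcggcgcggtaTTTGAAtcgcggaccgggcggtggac
The Ccnb1 and Aurka windows each hold 2 CCAAT matches, and those of Cdca3 and Ccnb2 hold 3 each. TTTGAA was found 2 times in the Ccnb2 window and not in the other windows shown. Over whole 300-base windows and both strands, which the table gives for 22 of the 26 genes, CCAAT was present in 20 and TTTGAA in 17. For comparison, 41.1% of all 27025 genes with such a window held CCAAT and 20.2% held TTTGAA in at least 1 window. Of 19 S phase genes with a window 11 held CCAAT and 3 TTTGAA. Of 13 astrocyte genes with a window 8 held CCAAT and 1 TTTGAA. The matches describe these letters only, and binding was not measured.

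Many genes of other glia and of vessels were higher at P30. In bulk RNA, fewer cells of a type and less RNA per cell cannot be told apart, and this holds for each cell class named here. Of 16 astrocyte genes 13 were higher and none lower (median 3.85), and all 16 estimates were above 0. Slc1a2, the main astrocytic glutamate transporter, read 7.78, 12.5 and 7.79 at P7 and 246, 267 and 246 at P30 (log2 fold change 4.64, SE 0.46, adjusted p = 7.93e-07), and Aqp4, the water channel of astrocyte endfeet, 5.62, 5.84 and 3.77 at P7 and 81.3, 70.8 and 97.2 at P30 (log2 fold change 3.80, SE 0.66, adjusted p = 0.000665). Slc4a4, a bicarbonate transporter, read 1.04, 1.55 and 1.36 at P7 and 35.8, 48.1 and 41.9 at P30 (log2 fold change 4.21, SE 0.47, adjusted p = 5.35e-06). The P30 libraries agreed closely in these 3 genes and none overlapped with P7. Aldh1l1, Gfap and Sox9 did not pass. Sox9 read 9.18, 9.89 and 5.94 at P7 and 7.51, 86.2 and 16.1 at P30, so that P30 replicate 1 lay within the P7 range and replicate 2 far above it. The count was 12 to 15 over all alternatives.

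Endothelial genes followed, with 11 of 16 higher and none lower (median 2.93). Ly6c1, an antigen of brain capillaries, read 0.3696, 0.471 and 0.0936 at P7 and 42.9, 36.1 and 47.6 at P30 (log2 fold change 5.04, SE 0.99, adjusted p = 0.0019), and Slco1a4, an organic anion transporter of the blood-brain barrier, 0, 0.0284 and 0 at P7 and 10.3, 8.02 and 5.13 at P30 (log2 fold change 3.08, SE 0.65, adjusted p = 0.00352). Cldn5, the tight junction claudin, read 7.83, 12.4 and 15.2 at P7 and 149.8, 98.3 and 192 at P30 (log2 fold change 3.52, SE 1.10, adjusted p = 0.0428). Bsg, basigin, which is not confined to vessels, was already at 422 ± 24.5 at P7 and 1374 ± 112 at P30 (mean ± SD, n = 3; adjusted p = 0.00425). Pecam1 and Cdh5, present in all endothelium, stayed below 5 in all libraries and did not pass, with 1.75, 2.28 and 0.504 at P7 and 1.69, 2.7995 and 4.31 at P30 and 0.0164, 0.0434 and 0.299 at P7 and 1.43, 1.29 and 0.893 at P30 in that order. Of 12 tested genes of mural cells and fibroblasts 4 were higher (median 1.78). Pdgfrb, the pericyte receptor, read 0.0377, 1.44 and 0.845 at P7 and 22.7, 29.2 and 20.3 at P30 (log2 fold change 3.89, SE 0.67, adjusted p = 0.000583), and Vtn, vitronectin, 1.798, 7.09 and 14.99 at P7 and 176, 116 and 133 at P30 (log2 fold change 4.30, SE 1.34, adjusted p = 0.043). The endothelial count was 7 to 10 without 1 NAc library, lowest without P7 replicate 1, and 7 with a pseudocount of 0.1; the mural count was 2 without any 1 NAc library, and Vtn is lost in all 6 of these fits. The fibroblast genes Lum, Dcn and Col1a1 did not pass. Of 8 ependymal and choroid plexus genes 3 were higher: Tmem212, Rarres2 (0, 0.0458 and 0 at P7 and 36.2, 20.6 and 20.2 at P30; log2 fold change 4.66, SE 0.98, adjusted p = 0.00352) and Ccdc153, which had 0 reads at P7 and 20.8, 17.6 and 38.2 at P30.

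Of 11 tested genes of oligodendrocyte precursors 6 were higher and none lower (median 2.24). Gpr17, a receptor of committed precursors that overlaps Lims2, read 0, 0.0117 and 0.649 at P7 and 49.4, 29.2 and 33.003 at P30 (log2 fold change 4.97, SE 0.86, adjusted p = 0.000654). Neu4, a sialidase, read 0.0594, 0 and 0 at P7 and 32.4, 26.7 and 18.03 at P30 (log2 fold change 4.67, SE 0.80, adjusted p = 0.00061), and Pdgfra, the growth factor receptor of the lineage, 0.5496, 1.2004 and 1.34 at P7 and 16.5, 11.2 and 15.8 at P30 (log2 fold change 2.94, SE 0.66, adjusted p = 0.00622). These were near 0 at P7 and moderate at P30, whereas the lineage factor Olig1 read 10.4, 19.2 and 14.8 at P7 and 20.7, 8.99 and 9.44 at P30 and did not pass. Of 15 myelin genes 4 were higher (median 1.16). Mbp, myelin basic protein, read 2.83, 1.25 and 1.904 at P7 and 35.5, 29.5 and 38.6 at P30 (log2 fold change 3.59, SE 0.52, adjusted p = 0.000116); Mbp shares bases with the pseudogene Rpl21-ps8. Cnp (1.81 ± 0.56), which overlaps Dnajc7, and Mal (2.63 ± 0.82) rose with adjusted p-values of 0.0407 and 0.0435, and both are lost without any 1 NAc library. With 1 NAc library left out 2 myelin genes were called in each case. Title codes and sequencing depth moved with age beside all these lists. The part of a batch or of depth in the increases was not tested.

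The microglial genes themselves were high at both ages. None of 18 genes shared by microglia and macrophages was called (median -0.46), and their summed level was 18829 to 19944 at P7 and 14136 to 18649 at P30. C1qa, a complement gene, read 3224, 3228 and 2969 at P7 and 3963, 2422 and 3875 at P30 and Aif1, encoding Iba1, 143, 137 and 129 at P7 and 181, 167 and 171 at P30. Csf1r, the receptor on which microglia depend, read 722, 698 and 738 at P7 and 238, 239 and 334 at P30 (adjusted p = 0.111) and Spi1, encoding the myeloid factor PU.1, 348, 344 and 328 at P7 and 13.2, 114 and 131 at P30 (adjusted p = 0.109). Both were lower in each P30 library than in each P7 library, but not past the threshold of the fit that shares its spread over all 27 libraries. With the 6 libraries fitted alone 1 member was higher and 4 were lower, so the count of 0 depends on how the spread was estimated. By voom on recovered reads 1 was higher and 8 lower.

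**Figure D3:**
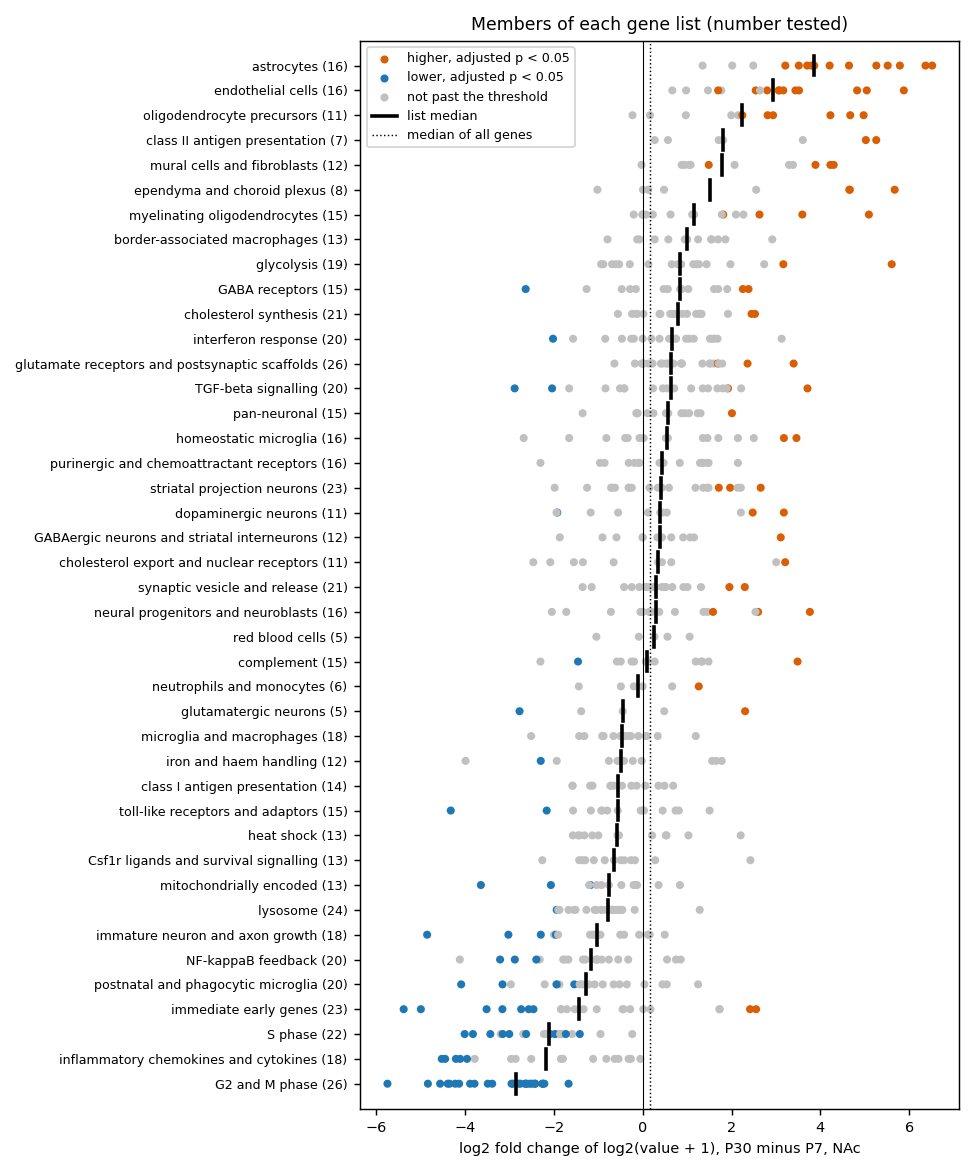
Log2 fold change (P30 minus P7, NAc) of every tested member of the gene lists with at least 5 tested genes, ordered by median. Orange and blue points passed the threshold in either direction, grey points did not, bars are list medians and the dotted line is the median of all genes, 0.17. The astrocyte list stands at the upper end with a median of 3.85 and the G2 and M phase list at the lower end with -2.86.

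Of 16 genes of adult, homeostatic microglia 2 were higher and none lower (median 0.55). Tmem119, a membrane protein used as the marker of resident microglia, read 199, 224 and 213 at P7 and 2129, 1672 and 2008 at P30, a 9.13-fold rise (log2 fold change 3.18, SE 0.62, adjusted p = 0.00185). Selplg, the P-selectin ligand, read 51.1, 48.7 and 56.5 at P7 and 634, 441 and 707 at P30, an 11.4-fold rise (log2 fold change 3.46, SE 0.53, adjusted p = 0.000203). No library overlapped between ages in these genes, and both passed in every alternative. P2ry12, the purinergic receptor of process motility, read 419, 343 and 406 at P7 and 1131, 889 and 977 at P30 (adjusted p = 0.384), and the fructose transporter gene Slc2a5 14.5, 16.1 and 15.96 at P7 and 98.4, 97.04 and 82.7 at P30 (adjusted p = 0.18). Fcrls, another microglial marker, had 1288, 1254 and 1263 at P7 and 211, 189 and 194 at P30 (adjusted p = 0.098), and Cx3cr1, the fractalkine receptor, read 299, 293 and 316 at P7 and 318, 198 and 381 at P30 (log2 fold change -0.07). With the 6 libraries fitted alone 7 members were higher and 3 lower, and without the 4 libraries of other groups that had the fewest genes of their group 5 were higher and 2 lower.

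Genes of postnatal and phagocytic microglia fell where they passed. Of 20 such genes 4 were lower and none higher (median -1.28). Spp1, osteopontin, read 64.7, 108 and 30.3 at P7 and 6.32, 0 and 5.28 at P30 (log2 fold change -4.08, SE 1.03, adjusted p = 0.0132), and Lpl, lipoprotein lipase, 20.5, 19.9 and 22.5 at P7 and 2.38, 0.205 and 2.68 at P30 (log2 fold change -3.15, SE 0.68, adjusted p = 0.00403). Both belong to the signature of the proliferative microglia described in early postnatal white matter. Ctsb, a lysosomal protease that abuts Fdft1 on the other strand, read 1514, 1495 and 1380.3 at P7 and 403, 361 and 382 at P30 (log2 fold change -1.93, SE 0.40, adjusted p = 0.00268). Gpnmb, a glycoprotein of phagocytes, read 6.91, 7.14 and 1.42 at P7 and 0, 3.09 and 0.553 at P30 (log2 fold change -1.54, SE 0.45, adjusted p = 0.0305); its ages overlap, and it is lost in 8 alternatives. Igf1 and Clec7a of the same signature read 8.59, 10.7 and 9.05 at P7 and 1.39, 1.77 and 0.728 at P30 and 9.998, 8.36 and 15.998 at P7 and 6.26, 1.08 and 5.07 at P30 and did not pass (adjusted p = 0.067 and 0.461). Apoe, among the most abundant genes, read 4827, 5204 and 4385 at P7 and 1616, 3682 and 4762 at P30 (adjusted p = 0.387). Spp1 is lost without P7 replicate 1, P7 replicate 2 or P30 replicate 2 and by voom (adjusted p 0.00019 to 0.20 over its alternatives).

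Of 24 tested lysosomal genes 1, Ctsb, was lower (3.78% were over all genes), and 23 of 24 estimates were below 0 (median -0.79). Ctsd, cathepsin D, read 2012, 1863 and 1841 at P7 and 946, 697 and 1106 at P30 (adjusted p = 0.159). Fitted alone, the 6 libraries gave 16 lower and 1 higher. Ftl1, ferritin light chain, fell, with 7069 ± 339.6 at P7 and 1465 ± 331 at P30 (mean ± SD, n = 3; log2 fold change -2.29, SE 0.39, adjusted p = 0.000519), the 1 member called of 12 tested iron and haem genes (median -0.48). On the deposited scale neither Ctsb nor Ftl1 passes (adjusted p up to 0.16 and 0.18 over their alternatives). That scale keeps VTA P30 replicate 3 in another unit, and this library enters the shared estimate of the spread. Its part in these losses was not tested.

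**Figure D4:**
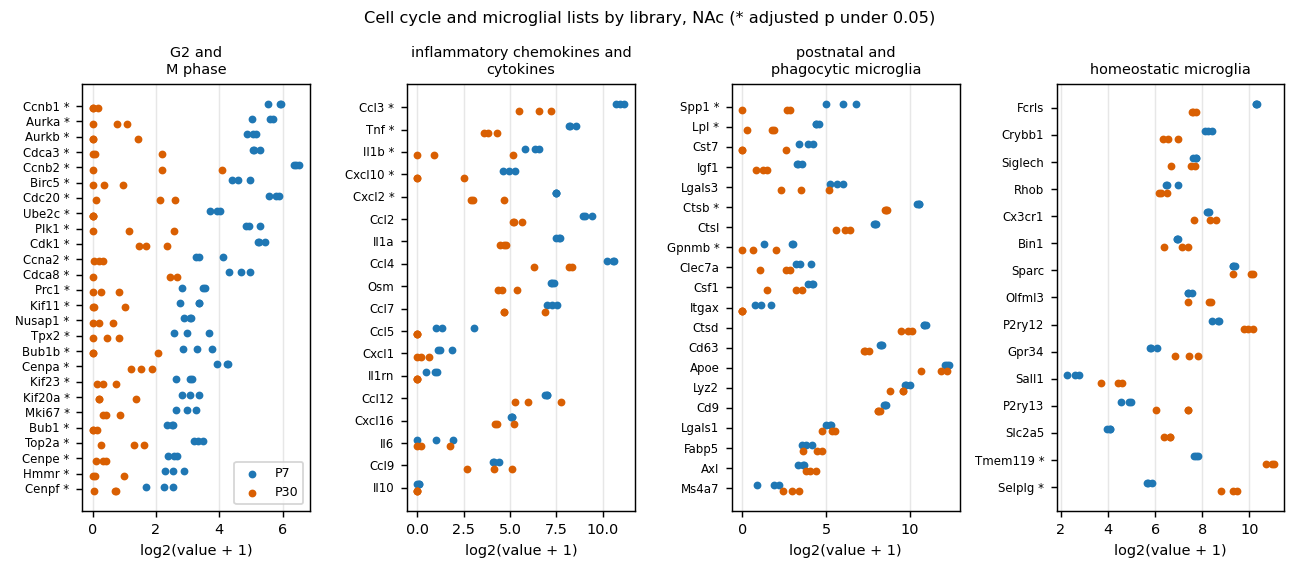
Levels of named members of 4 lists as log2(value + 1), 1 point per library, P7 in blue and P30 in orange, ordered by log2 fold change; an asterisk marks an adjusted p under 0.05. All 26 mitotic genes are marked, against 5 of 18 chemokine and cytokine genes, 4 of 20 phagocytic genes and, of the homeostatic genes, Tmem119 and Selplg.

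Inflammatory signal genes were abundant at P7. Of 18 chemokine and cytokine genes 5 were lower at P30 and none higher (median -2.17, all 18 estimates below 0), with a summed level of 4682 to 5950 at P7 and 441 to 806 at P30. Ccl3, a chemokine of macrophages, read 2308, 1969 and 1694 at P7 and 149, 44.2 and 92.5 at P30, a 20.9-fold fall (log2 fold change -4.52, SE 1.03, adjusted p = 0.00646). Tnf read 381, 295 and 304 at P7 and 10.98, 19.01 and 12.9 at P30 (log2 fold change -4.45, SE 1.23, adjusted p = 0.0225), and Il1b 92.2, 55.4 and 79.1 at P7 and 35.01, 0 and 0.866 at P30 (log2 fold change -4.20, SE 1.17, adjusted p = 0.0229), where P30 replicate 1 stood above the other P30 libraries. Cxcl10, an interferon-induced chemokine, read 30.2, 37.8 and 23.6 at P7 and 0, 4.82 and 0 at P30 (log2 fold change -4.11, SE 0.98, adjusted p = 0.00937), and Cxcl2, a neutrophil attractant, 181, 175 and 176 at P7 and 6.51, 6.91 and 24.6 at P30 (log2 fold change -3.95, SE 1.26, adjusted p = 0.0479). Ccl4 and Ccl2 read 1597, 1509.8 and 1196 at P7 and 327, 78.6 and 289 at P30 and 684, 519.8 and 490.2 at P7 and 35.4, 36.5 and 48.4 at P30 without passing (adjusted p = 0.272 and 0.0722). Without 1 NAc library 2 or 3 members were called, and fitted alone 10; Tnf and Il1b are each lost in 5 of the 6 fits without a library.

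Receptors and inhibitors of the same pathways gave fewer calls. Of 20 tested genes of NF-kappaB feedback 3 were lower and none higher (median -1.17): Nfkbid (-3.21 ± 0.83) and Nfkbiz (-2.39 ± 0.76), atypical inhibitors of the factor, and Cd83 (-2.88 ± 0.92), a surface protein of activated antigen-presenting cells. Cd83 read 718, 643 and 631 at P7 and 106, 72.7 and 92.7 at P30 (adjusted p = 0.0485). Each of the 3 genes was apart between ages, but 3 of the 6 fits without a library called none of them. Of 15 tested toll-like receptor genes and adaptors 2 were lower (median -0.56). Tlr2, the receptor for bacterial lipoproteins, read 133, 128 and 134 at P7 and 11.6, 1.94 and 6.87 at P30 (log2 fold change -4.32, SE 0.99, adjusted p = 0.00692), and Traf6, the ligase that relays these receptors, 10.998, 13.4 and 14.3 at P7 and 2.25, 1.25 and 3.07 at P30 (log2 fold change -2.16, SE 0.59, adjusted p = 0.0216). Traf6 is lost in 5 of the 6 fits without a library, and a pseudocount of 0.1 left no call in the list.

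Immediate early genes, which respond within minutes to activity or handling, moved in both directions. Of 23 genes 7 were lower and 2 higher (median -1.43). Beside Egr1 and Egr2, the genes Ier2 (-3.51 ± 0.61), Ier5 (-3.16 ± 0.84), Dusp1 (-2.73 ± 0.80), Dusp2 (-2.56 ± 0.50) and Jun (-2.46 ± 0.76) fell. Jun read 972, 962 and 916 at P7 and 25.04, 659 and 301 at P30 and Dusp1 517, 561 and 505.9 at P7 and 32.3, 422 and 34.5 at P30, with P30 replicate 2 far above the other P30 libraries in both. Fos, the most used marker of the class, read 870.5, 763 and 778 at P7 and 839, 429 and 799 at P30 and did not pass (log2 fold change -0.28, adjusted p = 0.835). Klf2, a quiescence factor of endothelium and leukocytes, rose with 1.901, 3.26 and 4.67 at P7 and 22.3, 16.5 and 25.3 at P30 (log2 fold change 2.42, SE 0.71, adjusted p = 0.0304), and its relative Klf4 with 2.64, 3.65 and 2.29 at P7 and 20.4, 19.7 and 24.5 at P30 (log2 fold change 2.55, SE 0.79, adjusted p = 0.0408). Without any 1 P7 library 4 of the list were lower, namely Egr1, Egr2, Ier2 and Dusp2, so that Ier5, Dusp1 and Jun were lost. Without any 1 P30 library 5 were lower. Neither Klf gene was called when any NAc library was left out. None of 13 heat shock genes was called (median -0.57).

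Genes of antigen presentation differed by class. Of 7 tested class II genes 2 were higher (median 1.81): H2-Eb1 read 0, 0 and 20.4 at P7 and 319, 73.1 and 49.6 at P30 (log2 fold change 5.26, SE 1.45, adjusted p = 0.0219) and H2-Aa 0, 0.713 and 21.2 at P7 and 444, 46.6 and 60.9 at P30 (log2 fold change 5.02, SE 1.42, adjusted p = 0.0255). These are the chains of the class II molecule itself. P7 replicate 3 and P30 replicate 1 were each far above the other libraries of their age, and neither gene is called without P7 replicate 1, P7 replicate 2 or P30 replicate 1. Cd74, the invariant chain, read 1030.5, 1076 and 1263 at P7 and 3782, 1020.1 and 639 at P30 (log2 fold change 0.27), overlapping between ages. None of 14 class I genes was called (median -0.56), and their summed level was 4307 to 4439 at P7 and 1522 to 2243 at P30. The next list stands against 5.81% of all genes called higher and 3.78% called lower. Of 20 interferon response genes 1 was lower, Oasl1 (3.56, 3.68 and 2.11 at P7 and 0, 0 and 0 at P30; log2 fold change -2.02, SE 0.65, adjusted p = 0.0494), and none higher (median 0.67); Oasl1 is lost in 10 alternatives, among them all 6 fits without a library.

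Over all genes 5.81% were called higher and 3.78% lower. Among 15 tested complement genes C4b rose and C3 fell (median 0.09), which is near these shares. C4b, which has a near-identical copy in the mouse genome, read 0.121, 0.0107 and 0.317 at P7 and 8.05, 21.3 and 9.41 at P30 (log2 fold change 3.49, SE 0.71, adjusted p = 0.00268). C3, the central component, was low at P7 and at 0 reads at P30, with 1.4996, 2.68 and 1.24 at P7 and 0, 0 and 0 at P30 (log2 fold change -1.45, SE 0.47, adjusted p = 0.0483), and it is lost in 11 alternatives. Of 20 genes of TGF-beta signalling 2 rose and 2 fell (median 0.63). Ltbp1, which stores the latent ligand in the matrix, read 0.0526, 0.661 and 0.0299 at P7 and 14.3, 17.96 and 12.9 at P30 (log2 fold change 3.71, SE 0.52, adjusted p = 6.89e-05), and Itgb8, an integrin that activates it, 0.455, 0.434 and 0.163 at P7 and 5.08, 3.799 and 3.53 at P30 (log2 fold change 1.92, SE 0.58, adjusted p = 0.0353). The intracellular repressors Skil and Tgif1 fell (-2.88 ± 0.87 and -2.04 ± 0.62). Itgb8, Skil and Tgif1 are each lost in all 6 fits without a library, whereas Ltbp1 passed in every alternative. None of 13 genes of border-associated macrophages was called (median 1.00), although Pf4 read 36.2, 33.2 and 39.7 at P7 and 115, 127 and 118 at P30 and Cbr2 13.9, 20.5 and 20.2 at P7 and 60.99, 75.7 and 67.5 at P30; fitted alone the 6 libraries gave 6 higher and none lower. No member was called among 13 Csf1r ligand and survival genes (median -0.64) and 16 purinergic and chemoattractant receptors (median 0.43).

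Neuronal genes were at low to moderate levels at both ages. Of 23 striatal projection neuron genes 3 were higher and none lower (median 0.42). Rasd2, a striatal GTPase, read 0.152, 1.03 and 0.889 at P7 and 9.195, 16.6 and 5.1997 at P30 (log2 fold change 2.66, SE 0.61, adjusted p = 0.00669), Pde10a, the striatal phosphodiesterase, 0.665, 1.55 and 2.06 at P7 and 7.69, 9.098 and 7.89 at P30 (log2 fold change 1.97, SE 0.53, adjusted p = 0.0188), and Ebf1, a factor of direct pathway neurons, 0.268, 0.392 and 0.732 at P7 and 4.41, 2.86 and 4.17 at P30 (log2 fold change 1.71, SE 0.53, adjusted p = 0.0406). The count was 0 with a pseudocount of 0.1, 1 without P7 replicate 1, P7 replicate 2 or P30 replicate 2 and 2 without the other libraries, and the fits without P30 replicate 1 or 2 called 1 member lower. Ebf1 is lost in all 6 of these fits and Pde10a in 3. Drd1 and Drd2, the main dopamine receptors, read 2.94, 3.28 and 2.85 at P7 and 3.14, 1.93 and 0.2897 at P30 and 0.0811, 0 and 0 at P7 and 2.78, 8.08 and 2.12 at P30 and did not pass (adjusted p = 0.516 and 0.0561). Penk, which encodes the enkephalins, read 85.7, 76.4 and 38.4 at P7 and 56.3, 85.6 and 72.1 at P30 and overlapped between ages. The pan-neuronal list gave 1 of 15 higher (Eno2, 2.01 ± 0.54, list median 0.57), and GABAergic neurons and interneurons 1 of 12 tested (median 0.38). Over all genes 5.81% were called higher, so these counts are near that share. Of 5 tested genes of glutamatergic neurons Camk2a rose (2.31 ± 0.65) and Neurod6 fell (-2.77 ± 0.79), the latter to 0 reads in all P30 libraries (median -0.45). Camk2a is lost in all 6 fits without a library, and Neurod6 and Eno2 in 5 each.

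Of 26 genes of glutamate receptors and postsynaptic scaffolds 3 were higher and none lower, against 5.81% higher over all genes (median 0.64, 23 of 26 estimates above 0). Dlgap1, a postsynaptic scaffold, read 0.885, 1.13 and 1.25 at P7 and 22.4, 25.4 and 16.1 at P30 (log2 fold change 3.40, SE 0.57, adjusted p = 0.000505), Grm3, a metabotropic receptor that astrocytes share, 15.8, 19.1 and 15.4 at P7 and 78.98, 97.5 and 94.3 at P30 (log2 fold change 2.36, SE 0.71, adjusted p = 0.0364), and Grik5, a kainate receptor subunit, 0.453, 0.952 and 1.47 at P7 and 8.47, 2.904 and 5.37 at P30 (log2 fold change 1.69, SE 0.52, adjusted p = 0.0411). Of 15 GABA receptor genes Gabrb1 (2.38 ± 0.56) and Gabbr2 (2.26 ± 0.58) rose, while Gabra5, a subunit of extrasynaptic receptors, fell, with 11.1 ± 0.809 at P7 and 1.03 ± 0.668 at P30 (mean ± SD, n = 3; log2 fold change -2.63, SE 0.51, adjusted p = 0.00189). Gabra5 was apart between ages and passed in every alternative. Without 1 NAc library 1 or 2 glutamate receptor and scaffold genes were called; Grm3 is lost in all 6 such fits, Grik5 in 5 and Dlgap1 in none. Of 21 synaptic vesicle genes 2 were higher (median 0.29), and none in 5 of the 6 fits without a library. Syn2 (2.30 ± 0.64) was among them, inside which lies Timp4, itself at 1.31 on average at P7 and 44.2 at P30. Whether reads were counted by strand is not given in the sources used here, so reads of such neighbours cannot be told apart.

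Genes of immature neurons and growing axons fell where they passed: 4 of 18, with none higher (median -1.03). Stmn1 and Stmn2, microtubule regulators of growing processes, read 260.5, 228 and 257 at P7 and 57.3, 11.2 and 39.8 at P30 and 31.4, 30.05 and 28.9 at P7 and 9.23, 3.04 and 5.199 at P30 (-3.02 ± 0.93 and -2.29 ± 0.60). Crmp1 fell as well (-1.95 ± 0.52), and Marcksl1 is the fourth. The count was 1 without P7 replicate 1 or P7 replicate 2 and with a pseudocount of 0.1, 2 without P7 replicate 3, P30 replicate 2 or P30 replicate 3, and 3 without P30 replicate 1. Stmn1 and Stmn2 are each lost in 5 of the 6 fits without a library and Crmp1 in 3, and Marcksl1 passed in every alternative. Stmn1 is also a gene of dividing cells, and mitotic genes fell beside it. The part of dividing cells in its fall was not tested. Of 16 tested genes of neural progenitors 3 were higher (median 0.29), among them Sox2, a stem cell factor that astrocytes keep, with 2.31, 0.798 and 1.64 at P7 and 24.8, 50.2 and 28.8 at P30 (log2 fold change 3.76, SE 0.74, adjusted p = 0.00207), and Egfr, with 0.07904, 1.07 and 0.263 at P7 and 9.12, 11.4 and 3.99 at P30 (log2 fold change 2.60, SE 0.62, adjusted p = 0.00948). Of 11 tested dopaminergic genes 2 rose and 1 fell (median 0.40). Aldh1a1, a retinaldehyde dehydrogenase also found in vessels and glia, read 0, 0 and 0.0636 at P7 and 8.63, 7.44 and 8.702 at P30 (log2 fold change 3.18, SE 0.82, adjusted p = 0.0155), and Dlk1, a non-canonical Notch ligand, 0.0609, 0.0107 and 0.0693 at P7 and 3.303, 5.18 and 6.45 at P30 (log2 fold change 2.48, SE 0.54, adjusted p = 0.00483). Gch1, the first enzyme on the way to tetrahydrobiopterin, which is also induced in macrophages, read 2.73, 2.36 and 3.54 at P7 and 0.0472, 0 and 0 at P30 (log2 fold change -1.92, SE 0.48, adjusted p = 0.0126). Slc18a2, Ddc and Nr4a2, the other genes of dopamine neurons followed throughout, had adjusted p-values of 0.543, 0.765 and 0.943. The estimate of Slc18a2 was below 0 in every alternative (-1.68 to -0.99). It passed with the 6 libraries fitted alone (limma adjusted p = 0.032).

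Counts of the metabolic lists stand against 5.81% of all genes called higher and 3.78% called lower. Of 21 cholesterol synthesis genes Fdft1, squalene synthase, and Msmo1, a sterol oxidase, were higher (2.45 ± 0.69 and 2.53 ± 0.68; median 0.80), and they are lost in 4 and 5 of the 6 fits without a library. Of 11 genes of cholesterol export and its receptors Nr1h3, the liver X receptor alpha, was higher, with 0, 0.0967 and 0 at P7 and 9.34, 5.91 and 11.1 at P30 (log2 fold change 3.21, SE 0.71, adjusted p = 0.00515; median 0.35). Of 19 glycolytic genes Aldoc and the glucose transporter Slc2a1 were higher (3.17 ± 0.73; median 0.85), and both are genes of astrocytes or capillaries as well. Of 13 mitochondrially encoded genes 3 were lower and none higher (median -0.76): mt-Nd3 read 13.9, 18.5 and 18.7 at P7 and 0.283, 0 and 1.29 at P30 (log2 fold change -3.64, SE 0.62, adjusted p = 0.000519), mt-Nd6 360.1, 496 and 451 at P7 and 182, 128 and 45.7 at P30 (log2 fold change -2.07, SE 0.45, adjusted p = 0.00431) and mt-Nd1 fell with an adjusted p of 0.0488 but is lost in 5 of the 6 fits without a library. All are subunits of respiratory complex I, and mt-Nd6 overlaps mt-Nd5. Mitochondrial reads made up 6.03 to 8.0% of reads in genes at P7 and 6.05 to 8.14% at P30.

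Red cell genes varied between libraries, with a summed level of 16.3, 213 and 71.6 at P7 and 24.6, 98.0 and 81.8 at P30. None of 5 tested red cell genes, 3 of T, B and NK cells and 1 of mast cells was called (medians 0.26, -0.28 and -0.34). Of 6 tested genes of neutrophils and monocytes Ccr2, the monocyte chemokine receptor, was higher, with 0.0102, 0 and 0.128 at P7 and 2.47, 1.27 and 0.999 at P30 (log2 fold change 1.26, SE 0.39, adjusted p = 0.0416), and it is lost in 10 alternatives. The neutrophil genes S100a8, Ly6g, Mpo and Ltf had 0 reads in all 6 libraries.

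The same interval was measured in SNc, and the difference between both changes was tested as an interaction. It passed for 125 genes (0.662%), 115 with a change higher in NAc (0.609%) and 10 lower (0.0529%). Of the 13 genes of border-associated macrophages 5 were among the 115, and the list's median change was 1.00 in NAc and -3.95 in SNc. F13a1, coagulation factor XIII of such macrophages, had a log2 fold change of 0.95 in NAc and -5.71 in SNc (difference 6.66 ± 1.17, limma adjusted p = 0.0104). Lyve1, a hyaluronan receptor, had -0.12 and -6.42 (difference 6.29 ± 1.32, adjusted p = 0.0244). The SNc P7 libraries were the high ones, with 211, 261 and 281 for Lyve1 against 10.4, 3.71 and 8.12 in the NAc at P7. Egr1 fell more in NAc (-5.38 against -1.29; difference -4.09 ± 0.98, adjusted p = 0.0492). Ctss, a lysosomal protease of microglia, differed by -2.67 ± 0.64 (adjusted p = 0.0492): it rose in SNc, where 6.61% of genes were called, and did not pass in NAc. The count of 5 border-associated macrophage genes was 1 without NAc P7 replicate 1, 2 without NAc P7 replicate 2, SNc P7 replicate 2 or SNc P7 replicate 3, 3 to 5 without each other NAc or SNc library, and 0 with a pseudocount of 0.1. No member of the astrocyte, endothelial, G2 and M phase or S phase lists was among the 125, but without VTA P30 replicate 3 in the fit 4 astrocyte genes differed higher and 1 G2 and M phase gene lower, and by voom 10 astrocyte genes did.

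**Figure D5:**
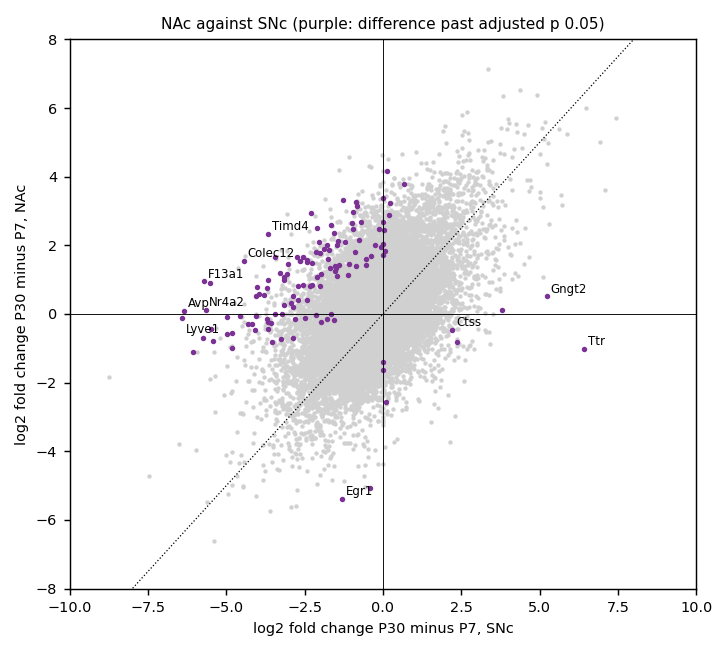
Log2 fold change from P7 to P30 in SNc (x axis) and NAc (y axis), 1 point per gene tested, with the 125 genes whose change differed in purple and the named ones labelled; the dotted line marks equal change. The 115 genes on the upper left, among them F13a1, Lyve1 and Timd4, outnumber the 10 on the lower right, such as Ttr and Ctss.

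The count of 125 is unstable in size. It was 4 with a pseudocount of 0.1 and 24 without NAc P7 replicate 1, and it was 1355 with the 12 compared libraries fitted alone. All 125 kept their direction in every alternative that tested them. For VTA the difference passed for 2934 genes (15.5%), 2574 (13.6%) with the change higher in NAc and 360 (1.91%) with it lower. One VTA library, P30 replicate 3, had reads in 6786 genes only; without it 1946 were higher and 772 lower, and under quantile normalization 976 were higher and 877 lower, so the excess in 1 direction depends on this library and on the scaling. Of the 16 astrocyte genes 14 changed more upward in NAc than in VTA and of the 16 endothelial genes 9, while 16 of 26 G2 and M phase genes and 3 of 22 S phase genes changed more downward. The list medians of the change in VTA were -0.46, -0.43, -0.69 and -0.65 in that order. Without VTA P30 replicate 3 the counts were 15, 5, 15 and 6, and on the deposited scale, on which that library has another unit, 4 astrocyte genes were called. Leaving out other libraries gave 13 or 14 astrocyte, 5 to 9 endothelial, 9 to 17 G2 and M phase and 1 to 5 S phase genes; 5 endothelial genes were left without NAc P7 replicate 1 or 2, 9 G2 and M phase genes without NAc P7 replicate 1, 10 without P7 replicate 3 or P30 replicate 3 of NAc, and 1 S phase gene without P7 replicate 3 or P30 replicate 1 of NAc, against 5 without VTA P7 replicate 3.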

How the data were processed

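Libraries were grouped by labelled region and age. The authors deposited FPKM per gene and library for 54532 genes. HISAT2 and GRCm38/mm10 are named in the submitters' processing notes; which counter, annotation and filters were used is not given in the sources used here. In VTA P30 replicate 3 the column was deposited in another unit: its values times gene length in kb (the deposited length column, another unit, in bases) sum to 55601698, against 670534 to 948735 elsewhere. Each library was therefore divided by that sum, so that values are per kb of gene and 1000000 reads in genes. Values below 1000 reads were whole reads within 0.02 in 100% of cases. Symbols came from the gene IDs (123 unmatched), since the name column is shifted.

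The 18888 genes reaching a value of 1 in 3 or more libraries were fitted on log2(value + 1) with limma 3.58.1 (trend, robust, R 4.3.3, statmod 1.5.0), with a term per group over all 27 libraries, which share 1 estimate of the spread. The script was tested on simulated data. Lists (44, of 692 genes) are described by counts and medians, without a set test. The members and lists were chosen with earlier results of these data known. Named were the 12 called genes with the largest change in each direction (mean of at least 5), up to 4 called members of each list by adjusted p, 6 genes per direction for each region difference, and Slc6a3, Th, Slc18a2, Ddc and Nr4a2; further list members and overlapping genes were named after their values were seen. A few genes that this rule names are not reported here, but stay in all counts over genes and lists. Promoter windows are from RefSeq. A floor of 3 reads marks detection. Alternatives were other filters, a pseudocount of 0.1, the deposited scale, quantile normalization, the 6 libraries alone with and without the replicate number as a block, voom on recovered reads, each library left out, and a fit without 4 libraries that each had the fewest genes with a read in its group (replicate 3 of NAc P60, of SNc P60 and of VTA P30, and replicate 2 of VTA P60). A fit without VTA P30 replicate 3 was added for the NAc and SNc results. With 3 libraries against 3 an exact permutation test of a single gene cannot go below p = 0.1 (two-sided), so none is given. Other steps used Python 3.11.15, pandas 2.3.3, numpy 2.4.6 and matplotlib 3.10.9.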

Additional observations from a re-analysis of the deposited data

Results flagged for a closer look

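The P30 minus P7 change differed between NAc and SNc, by limma's interaction contrast, in 125 genes. Among those named, the log2 change in NAc minus that in SNc was 6.66 for F13a1, 6.44 for Avp (vasopressin), 6.29 for Lyve1, 6.00 for Colec12, 6.00 for Timd4 and 5.78 for Nr4a2. In each of these the SNc P7 libraries were the high group. Nr4a2, a factor of dopamine neurons and macrophages, read 65.7, 66.0 and 40.2 in SNc at P7 and at most 0.211 in SNc at P30, against 0.441 to 4.14 in the 6 NAc libraries. Avp rested in part on SNc P7 replicate 3, with 1043 against 46.8 and 58.0. On the other side the difference was -7.44 for Ttr (transthyretin of the choroid plexus), -4.72 for Gngt2, -4.09 for Egr1 and -2.67 for Ctss. Ttr read 1135, 176 and 7765 in SNc at P30 and 0.369 to 15.3 in the NAc libraries. Timd4, a receptor of resident macrophages, rose in NAc (log2 fold change 2.34, adjusted p = 0.0449), where P30 replicate 2 read 24.9 and the others 3.44 and 2.35.

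Between NAc and VTA the change differed in 2934 genes. The difference was 9.07 for Agt, 7.54 for Snhg11, 6.95 for Dkk3, 6.91 for Cmtm5, 6.90 for Hes5 and 6.90 for Gnao1. It was -7.57 for Cks2, -7.54 for Pdk3, -6.21 for Mad2l1bp, -6.16 for Clec4a3, -5.91 for Hlx and -5.76 for Arl11. Agt was at 127 to 409 in VTA at P7, where the NAc read at most 1.61, and at 361, 209 and 1.79 in VTA at P30, the last being replicate 3. All 12 passed without that library. Beside them, mitochondrial reads were 13.2 to 21.7% of reads in genes in VTA at P7 and 9.89 to 19.9% at P30, against 6.03 to 8.14% in the NAc libraries, and their part in these differences was not tested.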

How the results depend on the processing

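All 1811 NAc calls kept their direction in every alternative that tested them. The count was 830 with a pseudocount of 0.1, which weights low values more, 5640 with the 6 libraries alone, 3599 without 4 libraries and 5950 by voom. Without each NAc library in turn it ranged from 824 (without P7 replicate 3) to 1242; it was 864 without P7 replicate 1, 921 without P7 replicate 2 and 1150 without P30 replicate 2. Each such group of 2 is assumed to vary like the others. The filters, the deposited scale, quantile normalization and the fit without VTA P30 replicate 3 gave 1265 to 2629.

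For NAc minus SNc the main count of 125 became 69 with a filter of 5, 4 with a pseudocount of 0.1, 57 on the deposited scale, 1355 with the 12 libraries alone, 723 without 4 libraries, 315 without VTA P30 replicate 3 and 1496 by voom. Without each library it ranged from 24 (NAc P7 replicate 1) to 117; other low counts were 43 and 47 (NAc P7 replicates 2 and 3), 53 and 60 (SNc P7 replicates 2 and 3), 57 and 68 (SNc P30 replicates 1 and 3). For NAc minus VTA quantile normalization gave 1853, against 2934, and single libraries left out gave 2002 to 2973.

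Same-numbered P7 and P30 libraries of NAc did not deviate together (correlations -0.010, 0.0059 and -0.017), so no pairing by number was seen between these ages. Whether same-numbered libraries of different regions at the same age belong together was not tested. With the replicate number as a block and the compared libraries alone, 4060 genes were called for NAc, 875 for NAc minus SNc and 1698 for NAc minus VTA.

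Of the called named genes 45 passed in every alternative and 56 did not, 43 of which were lost without at least 1 NAc library. Estimates near 0 changed sign for Nr4a2 (0.12; -0.26 under quantile normalization and -0.34 to 0.60 without each NAc library, with -0.34 without P7 replicate 1 and -0.28 without P30 replicate 1), Ddc (0.40; -0.064 without P30 replicate 1, up to 0.86) and Slc6a3 (0.44; -0.13 without P30 replicate 2, up to 0.73 without another library and 0.90 by voom). The causes of these shifts were not tested. Depth at P30 limits genes with few reads.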

Other observations

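The 6 libraries shared the expression pattern of male cells: Xist had at most 17 reads in any of them, and the Y-linked Ddx3y was at 14.8 to 18.0 at P7 and 3.26 to 5.43 at P30 (adjusted p = 0.189). The nuclear RNA Malat1 read 422 to 442 at P7 and 555 to 1256 at P30 (adjusted p = 0.0688), and Actb, the cytoskeletal actin, fell from 6964 to 7266 at P7 to 1656 to 3421 at P30 (log2 fold change -1.47 ± 0.37, limma adjusted p = 0.0126). These genes were chosen after their values were seen.

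Among genes with a mean of at least 5, the median log2 fold change by summed exon length was 0.02 for 826 genes of up to 1 kb, -0.18 for 1104 genes of 1 to 2 kb, -0.17 for 3441 genes of 2 to 5 kb, 0.10 for 1676 genes of 5 to 10 kb and 0.73 for 379 genes over 10 kb. The share called higher was 6.42%, 5.44%, 6.34%, 9.37% and 19.5% in that order. It thus rose with length from the bin of 1 to 2 kb upward, and only the shortest genes departed from this. The median was 1.31 for 64 antisense genes and -0.54 for 324 processed pseudogenes. The 72 cytosolic ribosomal protein genes that could be tested had a median of -1.39, with 9 lower and none higher.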
